A study of Mus musculus with 6 samples.

Results

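The nuclear genes of the respiratory chain and the ATP synthase were examined in obstructed ureters of Col17a1-KO and Col17a1-WT mice. Members were all non-control array rows whose gene name starts with Nduf, Uqcr, Atp5, Sdha, Sdhb, Sdhc or Sdhd, or with Cox followed by a digit from 4 to 8. The rule found 99 of the 36610 gene names on the array, represented by 153 probes, and 97 of them passed the filter on dim probes. Those 97 comprised 40 genes named as complex I subunits, 8 complex I assembly factors, 4 complex II subunits, 4 complex II assembly factors, 8 complex III subunits, 16 complex IV subunits and 17 ATP synthase subunits. The other 2 members, Cox7b2 and Cox8c, were not well above background on any of the 6 arrays, and no difference is given for them.

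The mice were 3 labelled Col17a1-KO and 3 labelled Col17a1-WT, all aged 2 months, on a C57BL/6N background, with ureters taken 4 days after unilateral ureteral obstruction (UUO), in which the ureter of 1 kidney is tied. Obstruction was common to both groups, and no unobstructed ureter was analysed here. A single mouse, KO-labelled replicate 3, is labelled female, all others being male, and how Col17a1 was altered, and in which cells, is not stated. RNA of each ureter was hybridised to its own 1-colour Agilent array, so that n = 3 per group, and the replicate numbers are taken to stand for separate mice.

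The array reading of the targeted gene went against the labels. Col17a1, which encodes a transmembrane collagen of epithelial attachment sites, had values of 0.50, 0.53 and 0.40 in the KO-labelled ureters, against -2.33, -0.80 and -0.39 in the WT-labelled ureters, on the log2 scale used throughout. The difference was 1.65 (SE 0.48, limma adjusted p = 0.457), with every KO-labelled array above every WT-labelled one. A second, dimmer Col17a1 probe differed by 1.10 in the same direction. Both probes lie on chromosome 19 (mm9, 47720894 to 47720953 and 47721454 to 47721513), and whether either lies in the altered part is not stated in the sources used here. For this reason the groups are called KO-labelled and WT-labelled.

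As background, the respiratory chain passes electrons from NADH through complex I, or from succinate through complex II, to ubiquinone, then through complex III and cytochrome c to complex IV, which reduces oxygen. Complexes I, III and IV pump protons out of the mitochondrial matrix, and the ATP synthase, also called complex V, uses the return flow to make ATP. Most subunits are encoded in the nucleus, while a few of the membrane-embedded ones of complexes I, III, IV and V are encoded by mitochondrial DNA. Smooth muscle, urothelium and fat differ in how many mitochondria they hold, and in bulk tissue fewer cells of a type and less RNA per cell cannot be told apart.

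Nuclear respiratory genes share upstream elements recognised by the transcription factors NRF1, GABP (also called NRF-2) and YY1. RefSeq promoters (build GRCm38.p6) were found for 81 of the 99 members, and the 250 bases before the start were searched on both strands for the letters of NRF1 (GCGC, then any base, then TGCGC), GABP (CCGGAAG) and YY1 (AANATGGC), none of which contains another. The NRF1 letters were present in 14 of 81 members (17.28%), against 4.233% of 27025 genes. GABP letters were present in 16 members (19.75%), against 7.826% of genes, and YY1 letters in 8 members (9.877%), against 4.488% of genes. At least 1 of the 3 was present in 33 members (40.74%), against 15.06% of all genes, and the median GC content of these windows was 57.2% in members and 52.4% in all genes. These are matches of letters, not measured sites.

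The promoters of Sdhd, Sdha and Cox8b are shown, 5′ to 3′ on the gene's own strand with matches in capitals, as examples of a promoter with and without these letters. Sdhd and Sdha, subunits of complex II, hold NRF1 letters on 1 or the other strand (Sdhd also GABP letters, written CTTCCGG on this strand), while Cox8b, the muscle and brown fat isoform of a complex IV subunit, holds none of the 3 in this window. The windows are chr9:50603850-50604099 for Sdhd, chr13:74350241-74350490 for Sdha and chr7:140900447-140900696 for Cox8b, all on the minus strand.
Sdhd: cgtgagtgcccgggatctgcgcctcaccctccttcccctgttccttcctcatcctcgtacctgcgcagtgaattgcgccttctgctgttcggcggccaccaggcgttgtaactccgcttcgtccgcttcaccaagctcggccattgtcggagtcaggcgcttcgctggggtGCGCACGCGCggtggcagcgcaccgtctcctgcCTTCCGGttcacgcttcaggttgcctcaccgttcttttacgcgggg
Sdha: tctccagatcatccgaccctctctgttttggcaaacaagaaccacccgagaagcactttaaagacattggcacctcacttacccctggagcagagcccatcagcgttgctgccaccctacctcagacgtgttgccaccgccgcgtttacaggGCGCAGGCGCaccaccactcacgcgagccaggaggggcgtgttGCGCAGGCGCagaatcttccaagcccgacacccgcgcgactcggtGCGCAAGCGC
Cox8b: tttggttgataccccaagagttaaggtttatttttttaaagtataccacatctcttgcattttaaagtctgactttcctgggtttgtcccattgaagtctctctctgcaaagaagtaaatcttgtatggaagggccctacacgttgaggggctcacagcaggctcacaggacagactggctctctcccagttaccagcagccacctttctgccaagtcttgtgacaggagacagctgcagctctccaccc

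Values are the log2 processed signal minus the 75th percentile of the same array, so a value of 0 lies at that percentile and a step of 1 is a doubling. Levels are compared between arrays for 1 probe at a time and not between probes, apart from the median brightness of members and of all genes given below. The marker genes Sdhb, Cox4i1 and Ndufa4 were well above background on all 6 arrays, as were all 97 measured members.

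No member passed the threshold between the groups. Of 97 members, 0 had a limma adjusted p under 0.05, as had 0 of all 22260 genes tested (0.0%), and the lowest adjusted p among members was 0.469. At an unadjusted p under 0.05 there was 1 member, Cox6a2, lower in the KO-labelled ureters, against 9.06% of all genes, 4.71% being lower and 4.35% higher. The values of the 2 groups did not overlap for 6 members (6.19%), against 15.4% of all genes. All 6 were lower in the KO-labelled ureters, a direction in which 8.13% of all genes did not overlap.

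Differences, given as KO-labelled minus WT-labelled, were small and mostly below 0. They were below 0 for 74 members and above 0 for 23, with a median of -0.064, while 50.2% of all genes were below 0 and their median was -0.00087. The 95% interval lay within 2-fold in both directions for 94 of 97 members, against 18403 of 22260 genes, and within 1.5-fold for 85 members, against 11949 genes. Members were much brighter, with a median value of 5.28 against 0.0272 for all genes tested. The all-gene counts were not matched for brightness, so they do not show that members were steadier than equally bright genes. The 3 members with wider intervals were the restricted complex IV isoforms Cox6a2, Cox7a1 and Cox8b. By class, the median difference was -0.068 for complex I subunits (6 of 40 above 0), -0.06 for complex I assembly factors (2 of 8), 0.00042 for complex II subunits (2 of 4), 0.016 for complex II assembly factors (3 of 4), -0.066 for complex III (2 of 8), -0.078 for complex IV (2 of 16) and -0.025 for the ATP synthase (6 of 17).

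**Figure D1:**
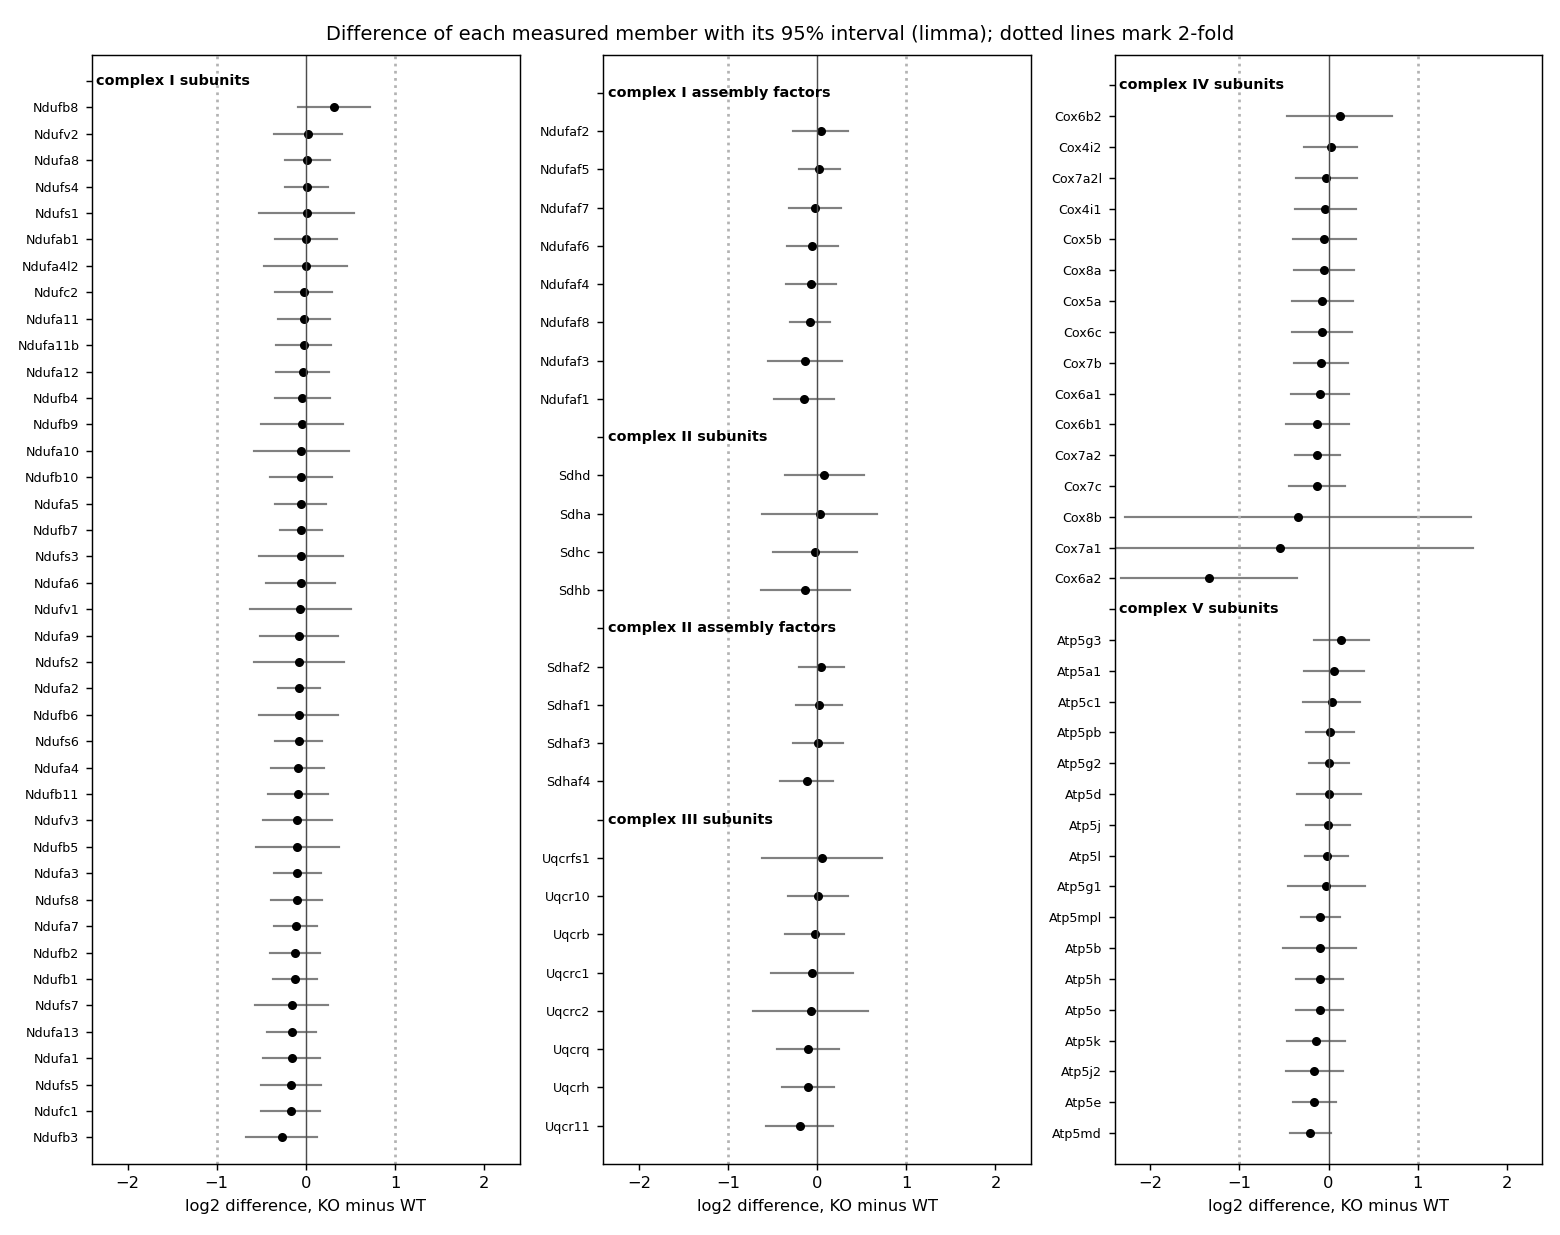
Difference of each of the 97 measured members, KO-labelled minus WT-labelled ureters on the log2 scale (points), with its 95% interval from limma (lines, cut at the axis ends), grouped by complex, n = 3 arrays per group. The intervals of 94 members stay within the dotted lines at 2-fold, and those of Cox6a2, Cox7a1 and Cox8b do not.

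The size of the median, and in 1 case its sign, depended on single arrays. Without WT-labelled replicate 1 the member median was 0.033 and 64 of 97 members were above 0. Without KO-labelled replicate 3, the female, it was -0.0062 with 47 above 0, and without WT-labelled replicate 2 it was -0.15 with 7 above 0.

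Most members shared their highest array, and their lowest was usually 1 of 2 others. The highest of the 6 arrays was WT-labelled replicate 1 for 80 of 97 members (82.5%), against 25.02% of all genes. The lowest was KO-labelled replicate 3 for 46 members (47.4%, against 11.5% of all genes) and WT-labelled replicate 2 for 37 (38.1%, against 18.4%). Measured from each gene's mean over 6 arrays, the median member stood at 0.016, 0.025 and -0.14 in KO-labelled replicates 1, 2 and 3, and at 0.23, -0.099 and -0.017 in WT-labelled replicates 1, 2 and 3. Both groups thus held a low array, and the WT-labelled group also held the high one. Under the 4 other scalings or probe summaries compared, WT-labelled replicate 1 was highest for 75 to 85 members, against 21.2% to 26.8% of all genes. Among the 46 kept probes that were not the brightest of their gene, it was highest for 30 (65.2%). These are descriptions of 6 libraries, and the members share those libraries.

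**Figure D2:**
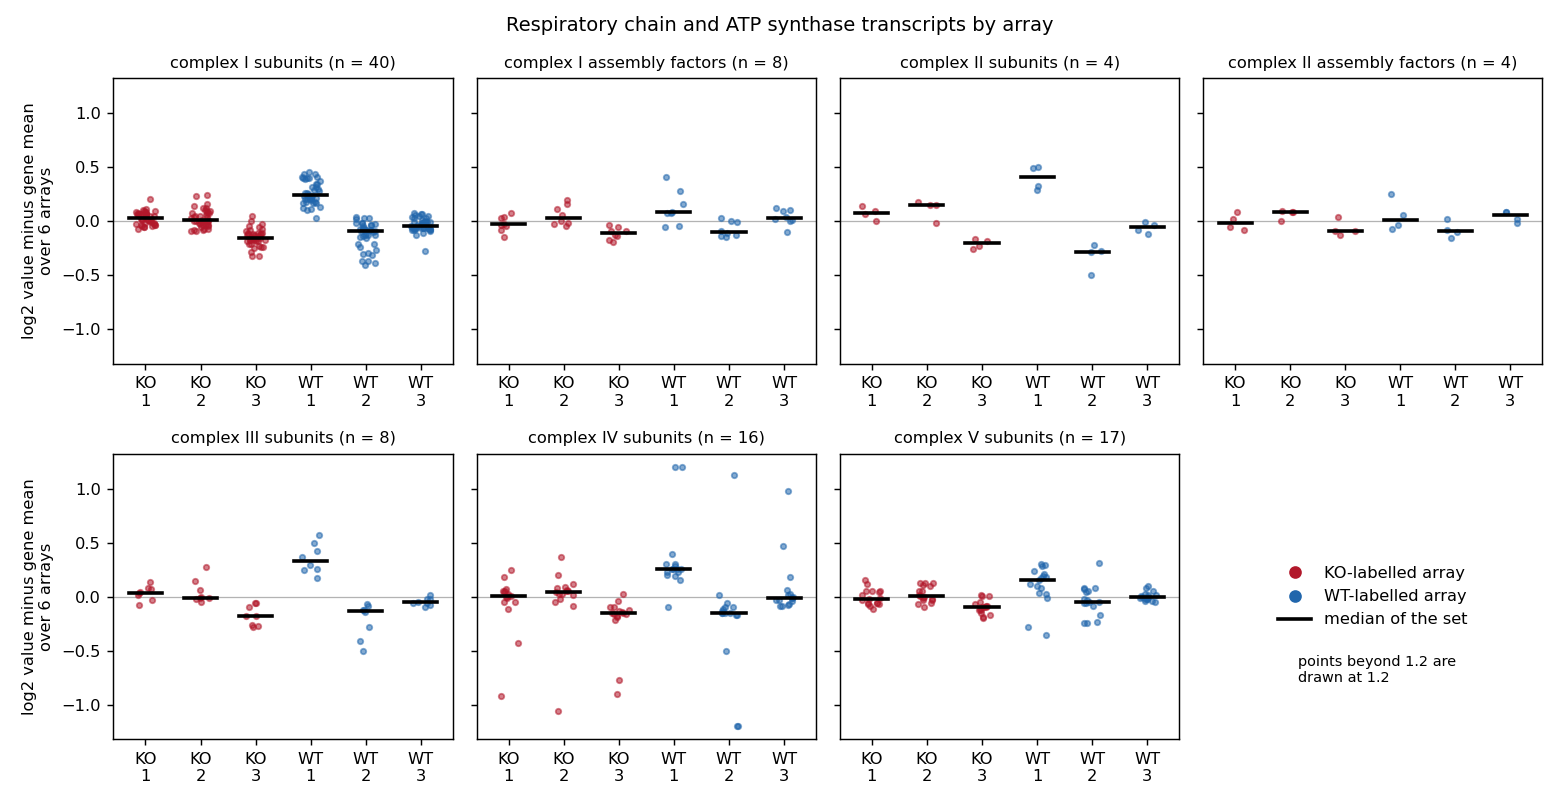
Each point is 1 member on 1 array, as its log2 value minus that gene's mean over the 6 arrays, with KO-labelled arrays on the left and WT-labelled arrays on the right of each panel and black bars at the median of the set. In WT-labelled replicate 1 the medians of complexes I to IV stand at 0.24 to 0.41, and those of the assembly factors at 0.011 and 0.08.

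The share of members with this highest array varied by class. WT-labelled replicate 1 was the highest array for all 7 nuclear-encoded core subunits of complex I and 31 of its 33 accessory subunits. The mitochondrially encoded core subunits lie outside the rule, are given further below, and are not part of the complex I core as counted here. The same array was highest for all 4 subunits of complex II, all 8 of complex III and 15 of 16 of complex IV. WT-labelled replicate 1 was highest for 10 of 17 ATP synthase subunits, 4 of 8 complex I assembly factors and 1 of 4 complex II assembly factors. The range over the 6 arrays, highest minus lowest, had a median of 0.68 in the complex I core, 0.67 in complex II, 0.55 in complex III, 0.42 in complex IV, 0.38 in the accessory subunits of complex I, 0.30 and 0.23 in the assembly factors of complexes I and II, and 0.29 in the ATP synthase. Over all 97 members the median range was 0.41, against 0.57 for all genes, which were not matched to the members for brightness.

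**Figure D3:**
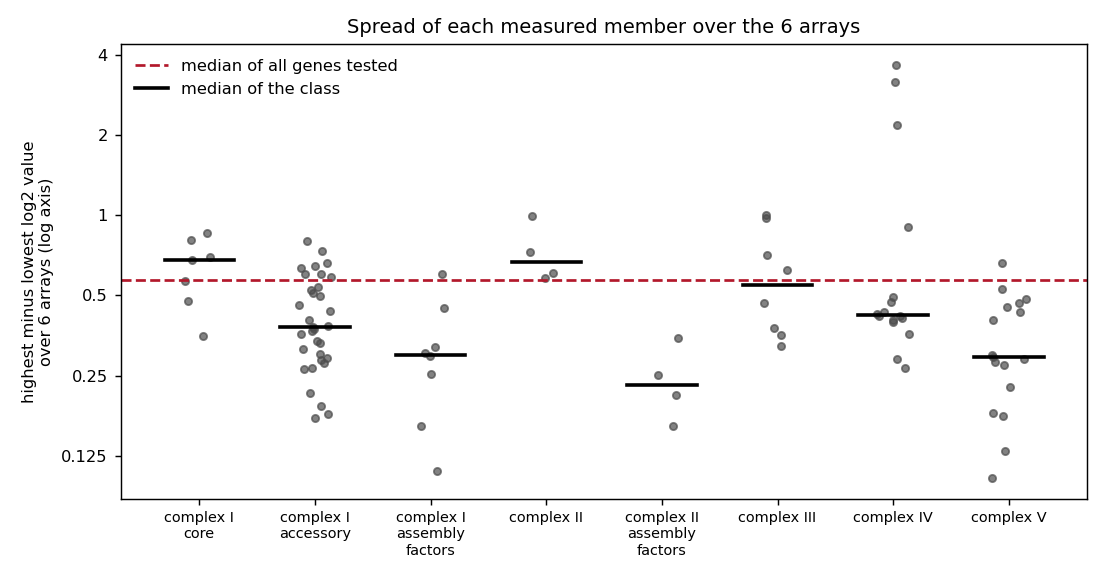
Highest minus lowest log2 value over the 6 arrays for each measured member (points, log axis), by class, with the class median (black bar) and the median of all genes tested, 0.57 (dashed line). The medians of the nuclear-encoded complex I core and of complex II lie above the line, and Cox7a1, Cox8b and Cox6a2 stand apart at 3.67, 3.17 and 2.18.

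Complex I, the NADH dehydrogenase, has a catalytic core that carries the flavin and the iron-sulphur clusters, surrounded by accessory subunits. Ndufv1, which binds NADH, had values of 5.41, 5.40 and 5.08 in the KO-labelled ureters, against 5.79, 4.93 and 5.37 in the WT-labelled ureters. The WT-labelled arrays thus enclosed the KO-labelled ones, and the difference was -0.064 (SE 0.23). It is given here as the nuclear-encoded core subunit with the widest range, 0.86, chosen after the values were seen. The medians of the nuclear-encoded core put WT-labelled replicate 1 at 0.40 above the gene means and WT-labelled replicate 2 at -0.30. WT-labelled replicate 2 was the lowest array for 6 of the 7.

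Among the accessory subunits, Ndufb3 had the largest negative difference. It stood at 4.65, 4.56 and 4.32 in the KO-labelled ureters, against 5.06, 4.57 and 4.73 in the WT-labelled ureters, a difference of -0.27 (SE 0.16, limma adjusted p = 0.66). WT-labelled replicate 2 lay just above KO-labelled replicate 2 and below KO-labelled replicate 1, so the groups overlapped. Ndufc1, another small accessory subunit, differed by -0.17 (SE 0.14). Ndufa13, also known as GRIM-19, stood at 6.61, 6.61 and 6.53 in the KO-labelled ureters, against 6.91, 6.65 and 6.67 in the WT-labelled ureters. Its groups did not overlap, by a margin that was small beside the lead of WT-labelled replicate 1, and its difference was -0.16 (SE 0.11, limma adjusted p = 0.712). Ndufa7 and the assembly factor Ndufaf8 were the other complex I genes without overlap, at -0.12 (SE 0.099) and -0.077 (SE 0.093).

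Ndufb8, an accessory subunit of the membrane arm, ran the other way on its brightest probe. Values were 5.94, 5.96 and 5.78 in the KO-labelled ureters, against 5.90, 5.36 and 5.46 in the WT-labelled ureters, a difference of 0.32 (SE 0.17, limma adjusted p = 0.612). A second, much dimmer probe of the same gene differed by -0.53 (SE 0.30), so its 2 probes disagreed in sign. Of the 35 members with more than 1 kept probe, 17 had probes that differed in sign, among them Sdha, Atp5b and Ndufs1.

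Ndufa4 was first described as a complex I protein and is now known as a subunit of cytochrome c oxidase; it is counted under complex I here by its name. It stood at 5.01, 4.82 and 4.74 in the KO-labelled ureters, against 5.07, 4.83 and 4.93 in the WT-labelled ureters, and differed by -0.089 (SE 0.12). Its relative Ndufa4l2, known as a hypoxia-induced gene, stood at 1.29, 1.44 and 0.88 in the KO-labelled ureters, against 1.47, 1.07 and 1.08 in the WT-labelled ureters. The groups of both genes overlapped, and the Ndufa4l2 difference was -0.0026 (95% interval -0.47 to 0.46). Ndufa11b, counted among the accessory subunits by its name, is by name a relative of Ndufa11, and whether the probes of the 2 cross-hybridise was not tested.

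Complex II, succinate dehydrogenase, is also an enzyme of the citric acid cycle and is encoded wholly in the nucleus. Sdha, its flavoprotein, stood at 4.63, 4.72 and 4.31 in the KO-labelled ureters, against 5.03, 4.04 and 4.50 in the WT-labelled ureters. The highest and the lowest array were both WT-labelled, 0.99 apart, and the difference was 0.027 (SE 0.26). Sdhb, its iron-sulphur subunit, stood at 5.58, 5.56 and 5.40 in the KO-labelled ureters, against 6.08, 5.35 and 5.50 in the WT-labelled ureters, and differed by -0.13 (SE 0.20, limma adjusted p = 0.874). Sdhd, a membrane anchor, stood at 4.64, 4.64 and 4.33 in the KO-labelled ureters, against 4.79, 4.21 and 4.38 in the WT-labelled ureters. All 4 subunits had WT-labelled replicate 1 as their highest array and WT-labelled replicate 2 as their lowest.

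The assembly factors of complex II varied less over the arrays than its subunits, and WT-labelled replicate 2 was the lowest array for 3 of the 4. Sdhaf2, which helps to attach the flavin to Sdha, stood at 0.46, 0.60 and 0.56 in the KO-labelled ureters, against 0.44, 0.44 and 0.60 in the WT-labelled ureters. Sdhaf4, which assists the joining of Sdha and Sdhb, differed by -0.11 (SE 0.12), and like the subunits it was highest in WT-labelled replicate 1 and lowest in WT-labelled replicate 2. The ranges of the 4 factors over the 6 arrays lay between 0.16 and 0.35, those of the 4 subunits between 0.58 and 0.99.

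Complex III, which passes electrons from ubiquinol to cytochrome c, had WT-labelled replicate 1 highest for every one of its 8 members. Uqcr11, a small subunit, stood at 6.05, 5.99 and 5.78 in the KO-labelled ureters, against 6.40, 5.95 and 6.05 in the WT-labelled ureters. Only WT-labelled replicate 1 stood clear of the KO-labelled arrays, and the difference was -0.20 (SE 0.16, limma adjusted p = 0.745). Uqcrc1, a core protein, stood at 5.40, 5.42 and 5.37 in the KO-labelled ureters, against 5.85, 5.14 and 5.37 in the WT-labelled ureters. Its KO-labelled arrays were close together (SD 0.029) within the spread of the WT-labelled ones (SD 0.36). Uqcrh, the hinge protein, and Uqcrq both differed by -0.10 (SE 0.12 and 0.14).

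Complex IV, cytochrome c oxidase, has several subunits that come as common and tissue-restricted isoforms. The common isoforms named here had ranges over the 6 arrays from 0.29 (Cox7a2) to 0.49 (Cox6b1), and the restricted Cox4i2 had one of 0.27. Cox4i1 stood at 7.21, 7.18 and 7.05 in the KO-labelled ureters, against 7.42, 6.99 and 7.13 in the WT-labelled ureters, and differed by -0.036 (SE 0.14). Cox6a1, Cox6b1, Cox7a2 and Cox8a differed by -0.091, -0.12, -0.13 and -0.048. Cox7c, which has no restricted isoform among the members, differed by -0.13, and the SEs of these genes lay between 0.10 and 0.15.

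Cox8b and Cox7a1, isoforms known from heart, skeletal muscle and brown fat, varied more than any other member. Cox8b stood at 5.67, 5.69 and 4.59 in the KO-labelled ureters, against 7.09, 3.92 and 5.96 in the WT-labelled ureters. Cox7a1 stood at 3.07, 3.87 and 2.73 in the KO-labelled ureters, against 5.66, 1.98 and 3.68 in the WT-labelled ureters. For both genes the WT-labelled group held the highest array, replicate 1, and the lowest, replicate 2, so that the difference between the groups was well inside the spread. It was -0.34 (SE 0.80, limma adjusted p = 0.925) for Cox8b and -0.55 (SE 0.89, limma adjusted p = 0.88) for Cox7a1, and without WT-labelled replicate 1 it was 0.38 and 0.39.

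Of the genes chosen as brown adipocyte markers, Ucp1, Cidea and Adipoq shared the highest array of these 2 isoforms, and Ppargc1a did not. Ucp1, the uncoupling protein that defines brown fat, stood at 4.17, 5.58 and 4.46 in the KO-labelled ureters, against 6.91, 4.32 and 5.11 in the WT-labelled ureters. Cidea, a lipid droplet protein of brown fat, stood at 5.10, 5.40 and 4.31 in the KO-labelled ureters, against 6.78, 2.64 and 4.15 in the WT-labelled ureters. Adipoq, the adiponectin gene of all adipocytes, stood at 6.59, 6.47 and 6.09 in the KO-labelled ureters, against 7.05, 6.05 and 6.35 in the WT-labelled ureters. WT-labelled replicate 1 was the highest array for all 3, and WT-labelled replicate 2 the lowest for Cidea and Adipoq, while KO-labelled replicate 1 was the lowest for Ucp1. Ppargc1a stood at 0.64, 1.15 and -0.66 in the KO-labelled ureters, against 0.04, -1.31 and -1.26 in the WT-labelled ureters. Its highest array was KO-labelled replicate 2 and its lowest WT-labelled replicate 2. Of the skeletal muscle genes, Acta1 differed by 0.40 (SE 0.36), with WT-labelled replicate 2 lowest, and Tnnt3 by 0.031 (SE 0.14), while Ckm, the muscle creatine kinase, was well above background on 2 of 6 arrays. The part of fat in the members' pattern was not tested.

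**Figure D4:**
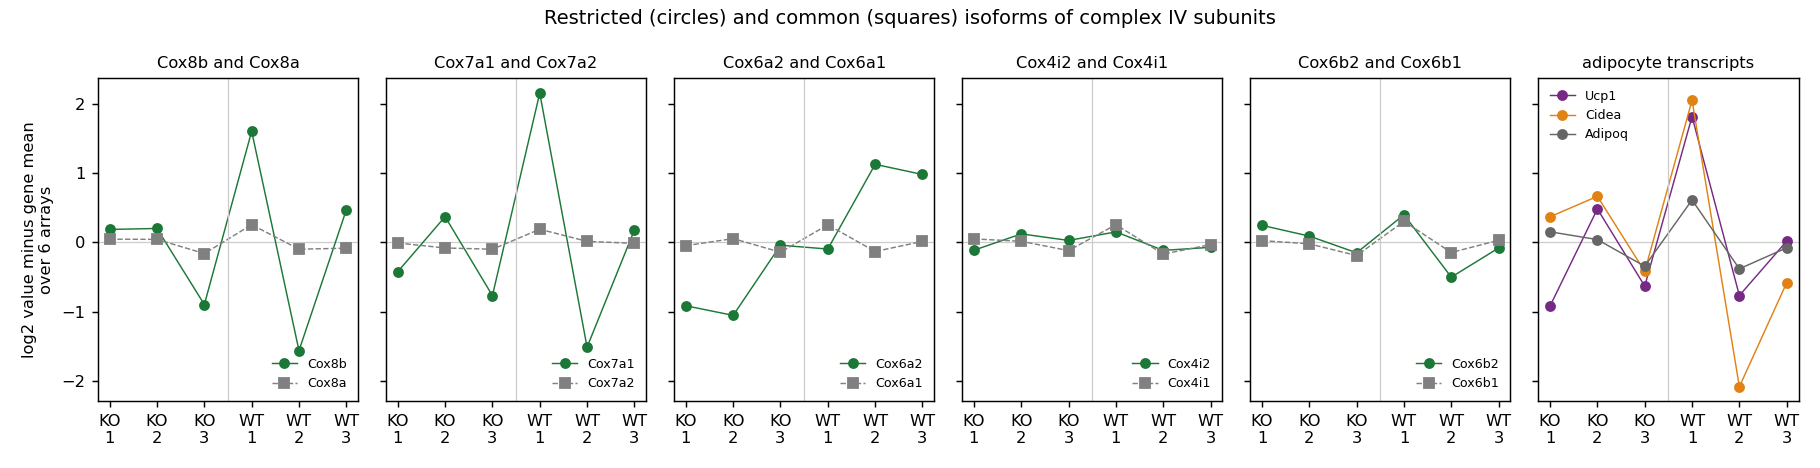
Log2 value minus the gene's mean over the 6 arrays for 5 pairs of complex IV isoforms, restricted (green circles) and common (grey squares), and for 3 adipocyte transcripts (right panel), with KO-labelled arrays left of WT-labelled arrays and lines joining the arrays only to guide the eye. Cox8b, Cox7a1, Ucp1 and Cidea peak in WT-labelled replicate 1, while Cox6a2 is highest in WT-labelled replicates 2 and 3.

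Cox6a2, the heart and skeletal muscle isoform of Cox6a, was highest in WT-labelled replicate 2 and lowest in KO-labelled replicate 2. It stood at -2.43, -2.57 and -1.56 in the KO-labelled ureters, against -1.62, -0.39 and -0.54 in the WT-labelled ureters. KO-labelled replicate 3 lay just above WT-labelled replicate 1, and otherwise every KO-labelled array was below every WT-labelled one. All 4 macrophage genes measured (Adgre1, Csf1r, Cd68 and C1qa) had the same highest and lowest arrays. Over all genes, WT-labelled replicate 2 was highest for 24.4% and KO-labelled replicate 2 lowest for 18.9%. The macrophage medians put WT-labelled replicate 1 (0.24) above KO-labelled replicate 3 (0.044), the reverse of Cox6a2. The part of macrophages in the Cox6a2 values was not tested. The Cox6a2 difference was -1.34 (SE 0.41, limma adjusted p = 0.469). With array weights the difference was -1.78 (limma adjusted p = 0.0435), the only setting that put a member past the threshold. It was below 0 under all 18 alternatives, between -1.78 and -0.69, with adjusted p values from 0.0435 to 0.992, and between -1.73 and -1.11 with 1 array left out.

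Cox4i2, an isoform known from lung and from hypoxic cells, stood at -1.44, -1.21 and -1.30 in the KO-labelled ureters, against -1.18, -1.44 and -1.40 in the WT-labelled ureters, a difference of 0.024 (95% interval -0.27 to 0.32). Cox6b2, known from testis, differed by 0.12 (SE 0.24), with WT-labelled replicate 1 highest at 1.06 and WT-labelled replicate 2 lowest at 0.15. Cox7a2l, a relative of Cox7a that is known to help join complexes III and IV, differed by -0.025 (SE 0.14).

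The ATP synthase has a catalytic head, a stalk and a ring of c subunits in the membrane. Atp5b, the catalytic beta subunit, stood at 7.37, 7.58 and 7.26 in the KO-labelled ureters, against 7.74, 7.21 and 7.56 in the WT-labelled ureters, and differed by -0.10 (SE 0.17). WT-labelled replicate 1 was its highest array and WT-labelled replicate 2 its lowest.

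Of the 3 genes of the c ring, none was highest in WT-labelled replicate 1. Atp5g1, Atp5g2 and Atp5g3 encode the same mature subunit c behind different import sequences, and Atp5g1 and Atp5g2 are named here after their values were seen. Atp5g1 stood at 5.24, 5.30 and 5.30 in the KO-labelled ureters, against 4.94, 5.60 and 5.37 in the WT-labelled ureters. Atp5g3 stood at 6.45, 6.35 and 6.30 in the KO-labelled ureters, against 6.02, 6.38 and 6.28 in the WT-labelled ureters, a difference of 0.14 (SE 0.13, limma adjusted p = 0.768). For both genes WT-labelled replicate 1 was the lowest array, which was so for no other of the 97 members, but for 29.6% of all genes. A second Atp5g1 probe and a second Atp5g3 probe also had their lowest value there, at 3.47 and -0.13, while the remaining Atp5g1 probe stood at 3.61 there and lowest, 3.45, in KO-labelled replicate 2. Atp5g2 had the smallest range of all members, 0.10.

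The groups did not overlap for 3 of the 17 ATP synthase genes (17.6%), against 15.4% of all genes. Atp5e, the epsilon subunit of the central stalk, stood at 6.34, 6.33 and 6.28 in the KO-labelled ureters, against 6.58, 6.44 and 6.41 in the WT-labelled ureters, a difference of -0.16 (SE 0.10, limma adjusted p = 0.671). Atp5mpl, a small membrane subunit, stood at 5.45, 5.47 and 5.46 in the KO-labelled ureters, against 5.54, 5.58 and 5.53 in the WT-labelled ureters. Its groups were tight and apart, by -0.090 (SE 0.090, limma adjusted p = 0.794). Atp5j2, the f subunit, differed by -0.16 (SE 0.13) and overlapped.

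Atp5md, also known as DAPIT or Usmg5 and associated with pairing of the enzyme into dimers, had the smallest p of complex V. It stood at 5.04, 5.06 and 5.06 in the KO-labelled ureters, against 5.33, 5.24 and 5.21 in the WT-labelled ureters. All KO-labelled arrays were below all WT-labelled ones, and the difference was -0.20 (SE 0.094, limma adjusted p = 0.579). A second probe gave -0.24. Its brightest probe lies on chromosome 19 (mm9, 47160456 to 47160515), 0.56 Mb from the Col17a1 probe, and whether the chromosome around Col17a1 differs between the mice was not tested. Ndufb8 is the next member on that chromosome, at 3.1 Mb.

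**Figure D5:**
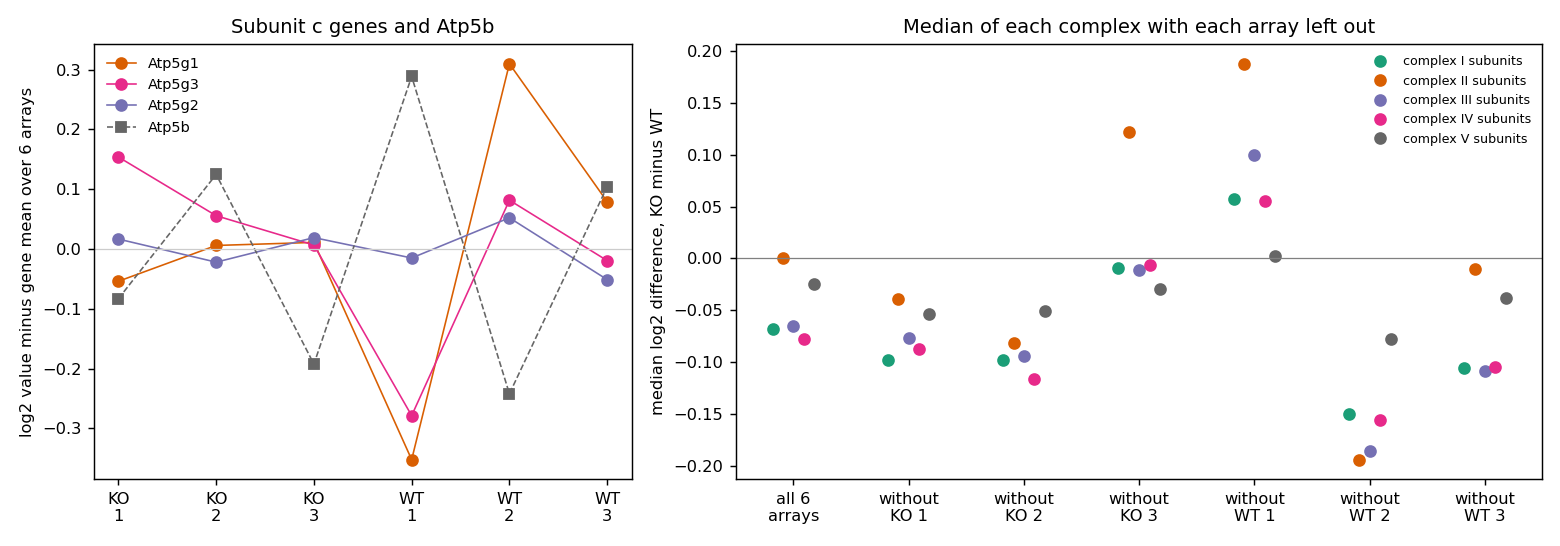
Left, log2 value minus the gene's mean over the 6 arrays for the subunit c genes Atp5g1, Atp5g2 and Atp5g3 and for Atp5b (grey squares), with KO-labelled arrays left of WT-labelled arrays. Right, the median difference of each complex, KO-labelled minus WT-labelled, with all arrays and with each array left out in turn, from -0.19 to 0.19 for complex II.

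The rest of the pathway was read from lists of genes outside the rule. Mitochondrially encoded subunits, 10 of which were measured, had a median difference of -0.11, with 3 above 0 and 0 at a limma adjusted p under 0.05. ND4L and ND3, subunits of the complex I membrane arm, differed by -0.27 (SE 0.12) and -0.20 (SE 0.10), and WT-labelled replicate 1 was the highest array for 3 of the 10. Their 3 genes without overlap between the groups, CYTB being the other, were all lower in the KO-labelled ureters, a direction in which 8.13% of all genes did not overlap (15.4% in either direction). Array probes do not separate mitochondrial transcripts from nuclear copies of mitochondrial DNA. Carriers and further subunits, 17 genes that include cytochrome c and the genes of ubiquinone synthesis, had a median of -0.020, with WT-labelled replicate 1 highest for 11; Coq4 and Pdss1 had the smallest p, at -0.10 (SE 0.096) and 0.19 (SE 0.19). Assembly factors outside the rule, 31 genes, had a median of -0.067, with 9 above 0. Of these, Coa4 (-0.48, SE 0.16) and Pet100 (-0.26, SE 0.093), both complex IV factors, had an unadjusted limma p under 0.05 (6.45% of the list, against 9.06% of all genes), and their adjusted p values were 0.483 and 0.502.

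Transcripts of other cell types also differed between arrays. Urothelial genes (uroplakins, Krt5 and Krt20) had a median difference of 0.89, with 6 of 6 above 0, and smooth muscle genes one of 0.71, also with 6 of 6 above 0. Krt5 and Krt20 differed by 0.91 (SE 0.19) and 0.88 (SE 0.21), and Actg2 and Tagln by 0.74 (SE 0.35) and 0.43 (SE 0.23). Macrophage genes had a median of -0.70, with 0 of 4 above 0, and Adgre1 and C1qa differed by -0.89 (SE 0.21) and -0.56 (SE 0.15). None of these had a limma adjusted p under 0.05. Kidney tubule transcripts were highest in WT-labelled replicate 2, where Kap, an androgen-regulated kidney protein, stood at 3.81 and Miox at 2.69, against -1.93 or lower and -2.69 or lower on the other arrays. Of 8 tubule genes only Slc34a1, Lrp2 and Cubn passed the filter, and Lrp2 and Slc34a1 differed by -0.89 (SE 0.14) and -1.05 (SE 1.11). Lrp2 was well above background on all 3 WT-labelled arrays but on only 1 KO-labelled array. It thus passed the filter through the WT-labelled group alone, and its difference sets signal against values near background. Its WT-labelled values were close together, at -4.05, -3.99 and -3.99, without the peak of Kap and Miox in replicate 2. The part of these cells in the members' values was not tested. WT-labelled replicate 2, the array where kidney tubule transcripts were highest, was the next to lowest in the member medians. Without WT-labelled replicate 2 and KO-labelled replicate 3 together the member median was -0.089.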

How the data were processed

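Total RNA of 6 ureters was labelled with Cy3 and hybridised to 1-colour arrays, 1 per mouse, per the labels' protocols. The deposited intensity values are background-subtracted, detrended spot signals from Agilent Feature Extraction 12.0.3.1, per the file headers; what the authors did between arrays is not stated. All arrays shared 1 slide and 1 scan time. Outlier spots (84 to 142 per array) were set missing and no spot was saturated. Spots of 56605 probes were averaged, and the log2 of the processed signal had the array's own 75th percentile (143.7 to 164.9) subtracted. A probe had to be well above background (35482 to 36568 were, per array) throughout 1 or both groups, and the brightest per gene gave 22260 genes. Accessions of 35400 probes matched RefSeq (GRCm38.p6). Probe coordinates are mm9, per the file headers. Precision is limited by the number of arrays.

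Genotype was fitted over all genes with limma 3.58.1 in R 4.3.3 (lmFit, eBayes, Benjamini-Hochberg, threshold 0.05), which was tested on simulated data; an exact permutation test of 3 against 3 cannot go below 0.1. Intervals are limma's 95% intervals. Probes of near-identical genes and processed pseudogenes may cross-hybridise. The members and lists were chosen with earlier results of these data known. Genes named were the markers, Sdha and Atp5b, restricted isoforms with their common partners, the 4 smallest p values per complex, and the 2 smallest p values per list. The 6 members without overlap are named in full, and some marker genes of other cells and examples of probes that differ in sign are named. Ndufa11b, Cox7a2l and CYTB were named outside these rules, and others are said to be chosen later. Alternatives were other background correction, scalings, filters, probe summaries, a variance trend, array weights, sex, the replicate number as a block, and leaving out arrays. Same-numbered arrays deviated with correlations of 0.53, -0.15 and -0.03, so the numbers were not taken as pairs.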

Additional observations from a re-analysis of the deposited data

How the results depend on the processing

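Of all genes, 0 passed the threshold in every setting but these. With array weights 498 genes passed, among them 1 member, Cox6a2; with the replicate block 1 gene passed and no member did; leaving out 1 array gave 0 to 1 genes, the 1 without KO-labelled replicate 2, and 0 members. Array weights ran from 0.23 (WT-labelled replicate 1) to 6.93 (WT-labelled replicate 3), and the cause of the larger count was not tested. The member median lay between -0.062 and -0.036 under the other scalings, and at 0.013 with array weights. Leaving out single arrays gave -0.151 to 0.0326. Each of these values differed from the main median by less than the SD of the per-array member medians between replicates. That SD includes WT-labelled replicate 1, without which the sign of the member median turned. Of the 558 values of the 31 named members under alternatives, 517 kept direction and side of the threshold, 40 turned direction and 1 crossed the threshold.

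The cause of the turns in direction was not tested. Array weights gave Cox4i1 0.0494, Ndufa4l2 0.175, Uqcrc1 0.0416, Uqcrq 0.00813, Sdhb 0.0444, Cox8a 0.0867 and Sdhaf2 -0.0609. Ndufa4l2 was 0.0253 centred on the median and 0.00222 after normexp. The mean of probes gave Ndufb8 -0.107 and Sdha -0.00733. Sex as a covariate, which removes KO-labelled replicate 3, gave Cox4i1 0.0147, Cox8b 0.0239, Ndufa4l2 0.161 and Cox8a 0.0206. Without WT-labelled replicate 2 and KO-labelled replicate 3 together Ndufa4l2 was 0.0945, Sdha -0.0944 and Cox4i2 -0.0354.

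Leaving out 1 array at a time spanned 0 for Atp5b (-0.247 to 0.0187), Cox4i1 (-0.129 to 0.0832), Cox4i2 (-0.0310 to 0.106), Cox6a1 (-0.179 to 0.0137), Cox6b2 (-0.0969 to 0.354), Cox7a1 (-1.44 to 0.394), Cox8a (-0.11 to 0.0674), Cox8b (-1.21 to 0.377), Ndufa4l2 (-0.122 to 0.161), Sdha (-0.216 to 0.281), Sdhb (-0.278 to 0.0871), Sdhd (-0.0459 to 0.245), Uqcrc1 (-0.212 to 0.141) and Uqcrq (-0.188 to 0.0201).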

Other observations

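Genes that feed the respiratory chain were mostly highest in WT-labelled replicate 1, like its members, and mostly lowest in WT-labelled replicate 2. The 13 measured genes of mitochondrial fatty acid oxidation had WT-labelled replicate 1 highest for 12 and replicate 2 lowest for 11, a median range over the 6 arrays of 1.35 and a median difference of -0.067, with 5 above 0. Acadvl, which starts the oxidation of very long acyl chains, stood at 5.40, 5.42 and 4.96 in the KO-labelled ureters, against 6.29, 4.63 and 5.46 in the WT-labelled ureters. Acads and Cpt2 had the smallest p in that list, with differences of -0.24 (SE 0.21) and -0.22 (SE 0.30). The 16 genes of the citric acid cycle had WT-labelled replicate 1 highest for 14 and replicate 2 lowest for 15, with a median range of 0.93; Suclg2 and Fh1 differed by 0.28 (SE 0.25) and -0.21 (SE 0.19).

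Glycolytic genes were highest in WT-labelled replicate 1 for 2 of 14. Of 14 measured, 11 had a difference above 0, the median being 0.037, and WT-labelled replicate 1 was the lowest array for 7. Pkm, the last step of glycolysis, stood at 6.63, 6.67 and 6.98 in the KO-labelled ureters, against 6.35, 7.02 and 6.64 in the WT-labelled ureters; Pfkl and Tpi1, with the smallest p, differed by -0.33 (SE 0.17) and 0.11 (SE 0.13). Ppargc1a, a coactivator of mitochondrial gene expression, stood at 0.64, 1.15 and -0.66 in the KO-labelled ureters, against 0.04, -1.31 and -1.26 in the WT-labelled ureters, a difference of 1.22 (SE 0.56, limma adjusted p = 0.579) in which the groups overlapped. The other 14 biogenesis genes included Twnk, the mitochondrial DNA helicase, at 0.23 (SE 0.11), and the list's median was -0.035. Acadvl and Pkm were picked with their values in view, and no gene of these lists had a limma adjusted p under 0.05.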
